A study of Mus musculus with 131 samples.

Results

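RNA of hepatocytes was compared between 1 newborn wild-type (WT) library and 3 libraries of WT mice aged 15 weeks. Hepatocytes are the main cells of the liver. The mice of both ages were C57Bl animals that had received no virus injection, carried no deleted gene and were compared to follow how expression matures after birth. The file column of the newborn library gives an age of 5 days, where the sample list gives 1 week, and of 2 newborn RNA samples in that list 1 could be assigned a column. Liver was perfused and digested with collagenase, and the cells were enriched on a Percoll gradient and sorted by size and absence of the leukocyte protein CD-45. Polyadenylated RNA was sequenced, and the level of each gene is given as FPKM, the fragments mapped to a gene scaled by its transcript length and by the size of the library. The 15 week libraries are called A, B and C here. Libraries from 3 WT mice aged 3 weeks (20 days in the file columns), named A, B and C likewise, are given beside them as values.

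All genes with at least 1 FPKM in the newborn library or as the mean of the 15 week libraries were taken, which was 10820 of the 24397 genes of the table. A gene was called higher or lower at 15 weeks where each of the 3 libraries differed from the newborn library by at least 1 unit of log2(FPKM + 1) in the same direction. With 1 newborn library there is no measure of the spread between newborn mice, so no test was possible and no p-value is given. Each error is the SD over the 3 libraries of 15 weeks and covers that side alone. The samples are not stated to come from separate litters or days, and age cannot be told apart from any difference in handling.

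The liver of a fetus is an organ of growth and of blood formation. Its hepatocytes divide and secrete alpha-fetoprotein, the fetal counterpart of albumin in plasma. After birth blood formation moves to the bone marrow, hepatocytes leave the cell cycle, and the liver takes over detoxification, bile acid secretion, nitrogen disposal and the supply of lipid and plasma proteins under the changing diet and hormones. In adult mice growth hormone is released in a pattern that differs between the sexes, and many liver genes follow that pattern.

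Before the comparison, the labels were checked against marker genes. Of the 12 hepatocyte markers, 11 were measured, and the sum of their levels was 39768 FPKM in the newborn library and 25942 to 27658 FPKM at 15 weeks. These sums include genes listed at 0 in some libraries. *Alb*, the gene of albumin, was listed at 0 in all 7 libraries of these ages, which cannot be its level in liver. *Trf*, the plasma iron carrier transferrin, was listed at 0 in the newborn library and at 8416, 7949.7 and 8897 FPKM at 15 weeks, and the 5 antitrypsin genes *Serpina1a* to *Serpina1e* were listed at 2427 to 3840 FPKM in the newborn library and at 0 in all 3 adult libraries. The 9 hepatocyte markers above 0 in all 4 libraries summed to 37341 FPKM in the newborn library and 17993 to 18761 FPKM at 15 weeks. Of these 9, 2 were higher, 1 was lower and the others were not called. The lower one, *Ahsg*, gave 19814 FPKM of the newborn sum and 4064, 4039 and 5000.1 FPKM of the adult sums. No fold change is given for genes listed at 0. In all, 16 genes were at 0 in 1 of the 4 libraries and at 100 FPKM or more in another, and 13 of these were among the calls. The sums over the marker lists of other cells are shown library by library in the plot of marker sums. Globins and other erythroid markers summed to 2445 FPKM in the newborn library against 41.9 to 47.4 FPKM at 15 weeks, with 11 of 13 measured markers lower and 1 higher. Leukocyte and neutrophil markers summed to 135 against 6.11 to 16 FPKM (8 of 9 lower), bile duct markers to 133 against 6.06 to 8.26 FPKM (4 of 4 lower), Kupffer cell markers to 14.4 against 2.49 to 4.33 FPKM (3 of 6 lower) and endothelial markers to 21.1 against 5.38 to 10.4 FPKM (1 of 6 lower). In the newborn library *Lcn2*, also on the acute-phase list, gave 66.2 FPKM of the leukocyte sum, and *Spp1* 114 FPKM of the bile duct sum. The leukocyte marker *Ptprc* and the bile duct markers *Krt19* and *Krt7* were below the filter, with 0.0732, 0.426 and 0.147 FPKM there. Stellate cell markers summed to 31.1 FPKM in the newborn library, inside the range of 14.9 to 31.7 FPKM at 15 weeks. Most of these markers passed the filter only through the newborn library, namely 11 of 13 erythroid, 8 of 9 leukocyte, 3 of 4 bile duct, 6 of 6 Kupffer cell and 4 of 6 endothelial markers. In the newborn library the sums of erythroid, leukocyte, bile duct, Kupffer cell and endothelial markers exceeded the adult sums by more than the adult range. The same held for megakaryocyte markers, with 6.17 against 0.777 to 0.947 FPKM, where 2 of 2 were lower and both passed through the newborn library alone. Fewer cells of a type and less RNA per cell cannot be told apart in such data. The newborn and 15 week libraries held Y chromosome transcripts and almost no *Xist*, the RNA of the inactive X chromosome, whereas the 3 week libraries had 77.1, 48 and 60.7 FPKM of *Xist* and at most 0.0664 FPKM of any of 4 Y-linked genes. At 3 weeks, age and sex cannot be told apart.

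**Figure D1:**
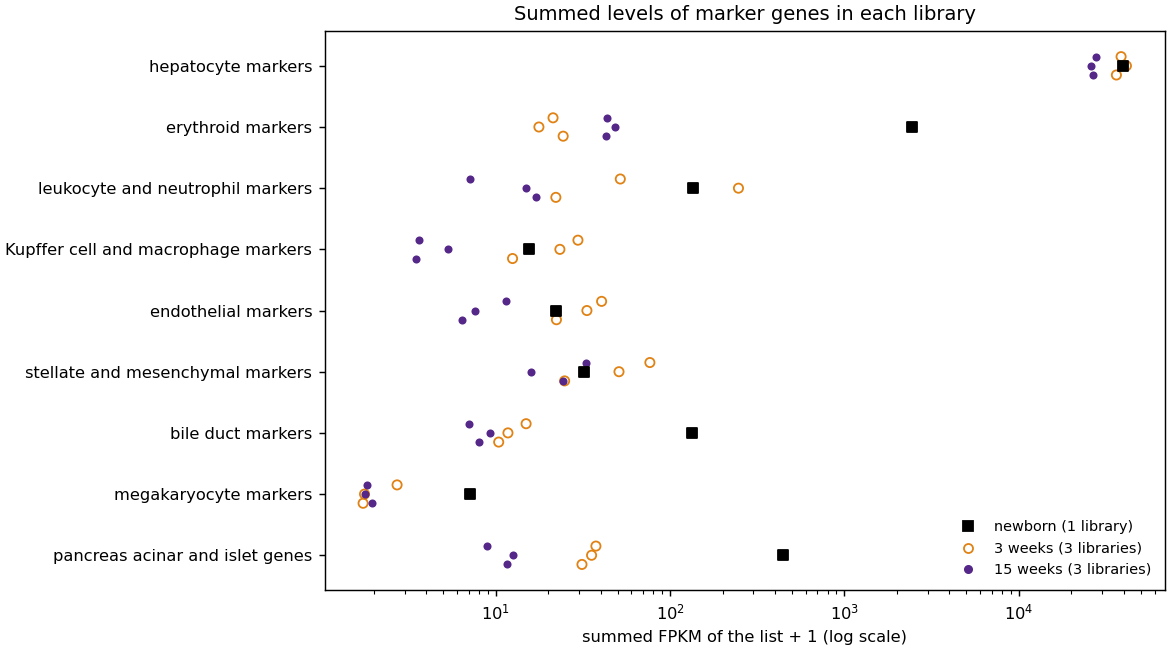
Summed FPKM of each list of marker genes in each library (x axis, summed FPKM + 1, log scale; squares, newborn; open circles, 3 weeks; filled circles, 15 weeks). The erythroid sum is 2445 FPKM in the newborn library and at most 47.4 FPKM at 15 weeks.

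At 15 weeks 641 genes were higher and 962 were lower than in the newborn library, which is 5.92% and 8.89% of the genes measured and 14.8% in either direction. The median difference over all 10820 genes was -0.02 log2 units, and the median SD between the 15 week libraries was 0.118 log2 units. Among the called genes, 30 of the higher and 31 of the lower genes had a range of over 1 log2 unit among the adult libraries themselves. Genes that were higher had a median of 4.03 FPKM in the newborn library and 21.7 FPKM at 15 weeks. Genes that were lower had a median of 5.6 FPKM in the newborn library and 0.369 FPKM at 15 weeks. The difference reached at least 3 log2 units in every adult library for 80 higher and 118 lower genes.

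The directions differed in how far the genes moved from or to silence. Of the 641 higher genes, 174 had under 1 FPKM in the newborn library and 467 were expressed at both ages. Of the 962 lower genes, 626 had a mean under 1 FPKM at 15 weeks and 336 were expressed at both ages. Because a gene silent on one side could enter only through the other side, the direction of such genes was fixed by the filter, and counts among the members expressed at both ages are given beside the others where these differ. The reference for those counts is the 9149 genes expressed at both ages, of which 467 were higher and 336 lower. The higher genes made up 4.99% of the summed FPKM in the newborn library and 27.1% to 28.6% at 15 weeks, while the lower genes made up 24.4% and 3.27% to 3.89%. These shares include abundant genes listed at 0 on one side, *Trf* among the higher and *Serpina1a* to *Serpina1e* among the lower genes. The listings at 0 widen the shift in both directions. At the limit of 1 log2 unit, *Stradb* was the last gene called higher and *Dock8* the first that was not, with 1.0 and 0.9996 log2 units in the nearest adult library, while among lower genes *Pdp1* was inside with -1.0 and *Kntc1* outside with -0.999 log2 units.

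**Figure D2:**
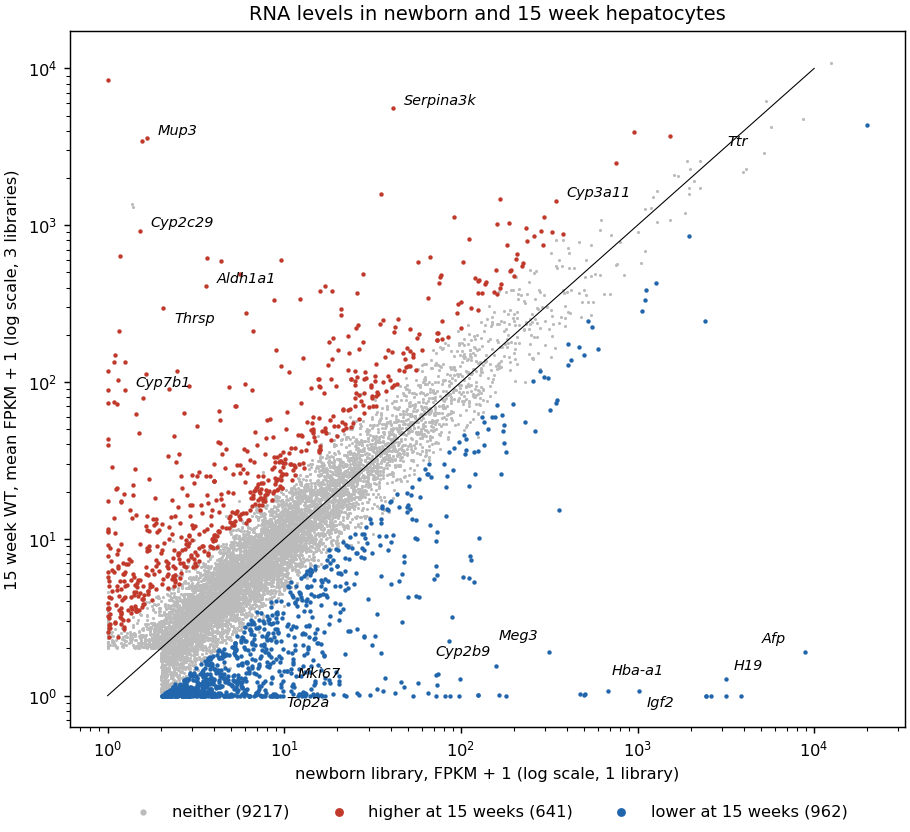
Level of each of the 10820 genes in the newborn library (x axis, FPKM + 1, log scale) and as the mean of the 3 libraries of 15 weeks (y axis, FPKM + 1, log scale), with the line of equal levels. Red points are the 641 genes called higher and blue points the 962 called lower, many of which lie on the lower edge with almost no reads at 15 weeks.

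Among genes above 0 in all 4 libraries, those with the largest fall included genes of fetal liver and of imprinted growth control. Imprinted genes are expressed from the copy of 1 parent only, and many of them regulate growth before birth. Of 23 such genes on the list, 15 were measured, 13 were lower at 15 weeks, none was higher, and the median difference was -5.28 log2 units against -0.02 over all genes. Only 3 of the 15 were expressed at both ages, of which 1 was lower. *Afp*, the gene of alpha-fetoprotein, had 8898 FPKM in the newborn library, the third highest level of all genes there, and 0.925, 0.896 and 0.839 FPKM at 15 weeks, a difference of -12.20 ± 0.03 log2 units (SD, n = 3). All 3 adult libraries lay under 1 FPKM, so the transcript was close to absent.

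The *Afp* promoter is printed here because *Afp* showed the largest fall in RNA of any gene with a value above 0 in all 4 libraries. The sequence (RefSeq, GRCm38.p6, chr5:90490464-90490763, plus strand) runs from 250 bases before to 50 bases after the start of the gene, and capitals mark its 3 CpG sites, the places where DNA can be methylated.
Afp: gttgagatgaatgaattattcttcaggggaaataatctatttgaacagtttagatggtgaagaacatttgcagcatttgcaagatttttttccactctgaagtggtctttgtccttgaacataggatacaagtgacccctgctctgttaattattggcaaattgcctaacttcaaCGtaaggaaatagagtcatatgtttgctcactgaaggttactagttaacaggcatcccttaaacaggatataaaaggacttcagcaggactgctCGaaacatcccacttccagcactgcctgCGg

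*H19* and *Igf2*, neighbouring imprinted genes that encode a noncoding RNA and the fetal growth factor IGF2, moved together. *H19* had 3179.8 FPKM in the newborn library and 0.323, 0.271 and 0.212 FPKM at 15 weeks, a difference of -11.29 ± 0.06 log2 units. *Igf2* had 1022 FPKM and 0.0705, 0.0877 and 0.0455 FPKM, a difference of -9.90 ± 0.03 log2 units. The 3 week libraries separated them from *Afp*, since *H19* still had 408, 341 and 439 FPKM and *Igf2* 16, 17.5 and 24.2 FPKM at that age while *Afp* had 1.5, 3.0 and 4.33 FPKM. *Gpc3*, a cell surface proteoglycan that restrains growth, had 164 FPKM in the newborn library, 6.74, 7.76 and 10.6 FPKM at 3 weeks and 0, 0.0261 and 0 FPKM at 15 weeks. The imprinted noncoding RNA *Meg3* (314 FPKM against 0.487, 1.18 and 0.998 FPKM) and its neighbour *Rian* (72.5 FPKM against 0.129, 0.164 and 0.19 FPKM) were near their adult level by 3 weeks, at 1.48, 1.03 and 1.36 FPKM and 0.256, 0.219 and 0.311 FPKM.

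*Grb10* and *Cdkn1c*, which restrain growth factor signalling and the cell cycle, and the imprinted zinc finger gene *Peg3* formed an intermediate group at 3 weeks. *Grb10* had 98.5 FPKM in the newborn library, 6.38, 3.96 and 5.83 FPKM at 3 weeks and 0.182, 0.412 and 0.239 FPKM at 15 weeks. *Cdkn1c* had 55.9 FPKM, 4.74, 4.5 and 5.92 FPKM and 0.185, 0.203 and 0.235 FPKM. *Peg3* had 85.2 FPKM, 15.4, 13.9 and 13.9 FPKM and 1.36, 1.19 and 1.1 FPKM. *Igf2r*, the imprinted receptor that removes IGF2, had 12.4 FPKM in the newborn library and 10.1, 10.6 and 9.59 FPKM at 15 weeks and was not called. The RNA-binding protein gene *Igf2bp3* had 7.67 FPKM and 0.0531, 0.027 and 0.0169 FPKM.

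**Figure D3:**
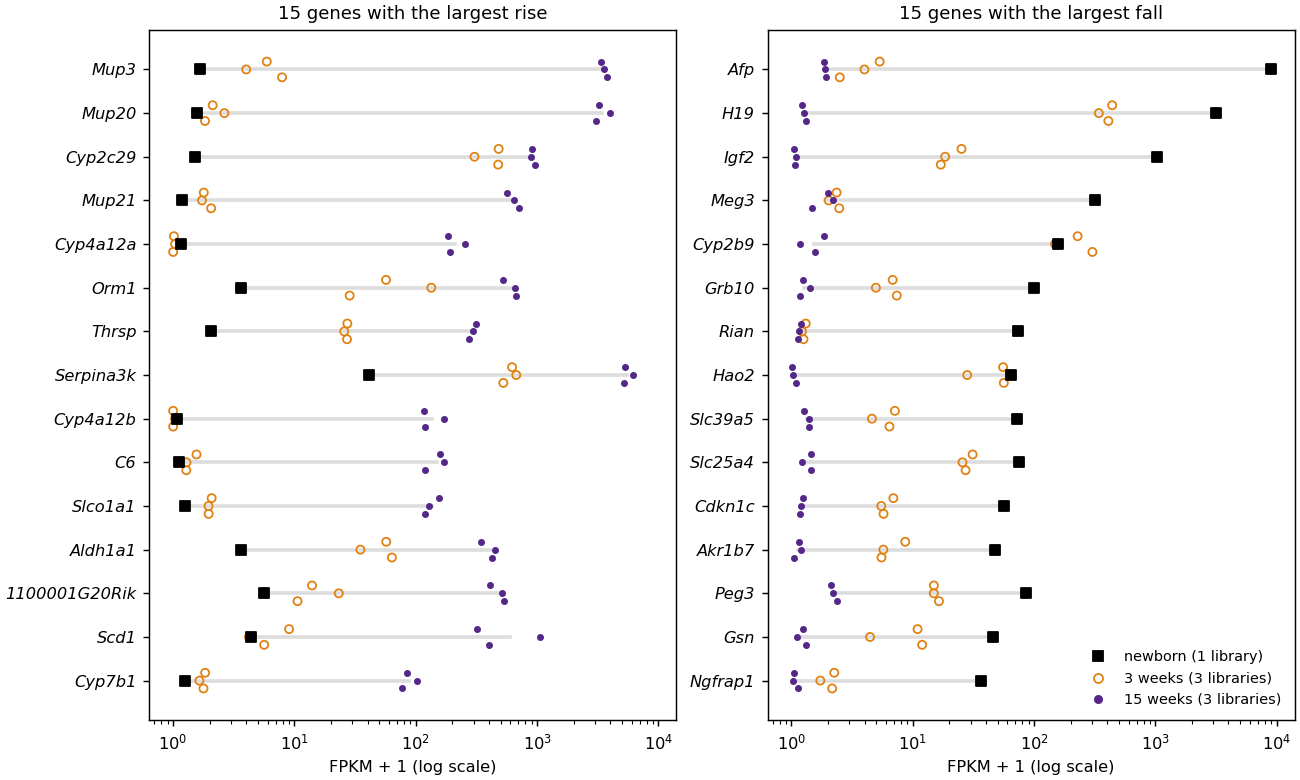
FPKM + 1 (x axis, log scale) in each library for the 15 genes with the largest difference in each direction among those above 0 in all 4 libraries (squares, newborn; open circles, 3 weeks; filled circles, 15 weeks). At 3 weeks *Cyp2c29* lies near its level at 15 weeks and *Mup20* near its newborn level, while *Cyp2b9* and *Hao2* lie near their newborn levels and *Meg3* and *Rian* near their adult levels.

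Genes of cell division were lower as a whole list. Of 45 genes on the list 44 were measured, and all 44 were lower at 15 weeks, with a median difference of -2.17 log2 units. Of these, 35 passed the filter only through their newborn level, and the 9 expressed at both ages were all lower. *Mki67*, the gene of the proliferation marker Ki-67, had 10.1 FPKM in the newborn library and 0.149, 0.204 and 0.121 FPKM at 15 weeks, a difference of -3.26 ± 0.05 log2 units. *Top2a*, which untangles chromosomes before they separate, had 10.3 FPKM and 0.138, 0.14 and 0.105 FPKM. Levels at 3 weeks were intermediate, at 1.32, 1.2 and 1.64 FPKM for *Mki67*.

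Levels of members from successive steps of the cell cycle follow. *Ccnd1*, the cyclin that starts the G1 phase, had 19.4 FPKM in the newborn library and 1.91, 1.67 and 2.5 FPKM at 15 weeks. *Mcm6*, part of the helicase that opens DNA for replication, had 27.5 FPKM and 1.3, 1.78 and 1.04 FPKM, a difference of -3.60 ± 0.22 log2 units. *Rrm2*, which makes deoxynucleotides, had 13.7 FPKM and 1.3, 1.44 and 1.13 FPKM. Each of these genes was called lower, for which the rule requires all 3 adult libraries to lie below the newborn library. For mitosis, *Cdk1*, the kinase that starts it, had 6.81 FPKM and 0.223, 0.33 and 0.168 FPKM, and *Cdc20*, which ends it, had 10.7 FPKM and 0.263, 0.401 and 0.314 FPKM. *Birc5*, the gene of survivin, fell from 12.1 FPKM to 0.403, 0.472 and 0.397 FPKM. *Cdk1*, *Cdc20* and *Birc5*, like *Mki67* and *Top2a* above, passed the filter through the newborn level alone. The direction of these genes was fixed by the filter. *Pcna*, the sliding clamp of DNA polymerase that is also used in repair, kept the highest adult level of the list at 10.3, 9.87 and 9.04 FPKM, from 24.1 FPKM in the newborn library. The newborn library also held RNA of erythroid and leukocyte marker genes, and the share of the cell division RNA that came from hepatocytes was not tested.

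Promoters of cell division genes are known for a short element, TTTGAA, together with CCAAT boxes. Among 300-base promoters of RefSeq, 35 of the 44 genes were found, and 17 (48.6%) held TTTGAA and 27 (77.1%) held CCAAT on either strand, against 18.1% and 37.9% of all 27025 promoters. Both were held by 17 (48.6%) of the list and by 7.12% of all promoters. These motifs do not overlap in letters, and a match is a description of the sequence and not of binding. The promoters of *Cdc20* and *Mki67* are printed because both genes are in the list and hold both elements, which are in capitals. They are from GRCm38.p6, minus strand, at chr4:118437294-118437593 and chr7:135716330-135716629.
Cdc20: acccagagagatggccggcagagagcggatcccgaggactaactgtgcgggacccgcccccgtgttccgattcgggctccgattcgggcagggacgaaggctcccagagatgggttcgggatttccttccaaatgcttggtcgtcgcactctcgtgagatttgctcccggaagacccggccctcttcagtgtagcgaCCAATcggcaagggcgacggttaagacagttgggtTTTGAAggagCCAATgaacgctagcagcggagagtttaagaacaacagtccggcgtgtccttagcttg
Mki67: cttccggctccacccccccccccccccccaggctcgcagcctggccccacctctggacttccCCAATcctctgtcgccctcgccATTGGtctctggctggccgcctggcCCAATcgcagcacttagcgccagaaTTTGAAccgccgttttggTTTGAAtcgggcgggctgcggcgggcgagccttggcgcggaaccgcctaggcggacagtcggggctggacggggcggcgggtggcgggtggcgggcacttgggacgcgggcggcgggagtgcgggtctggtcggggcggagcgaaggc

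The enzymes that write DNA methylation were lower in part. *Uhrf1*, which brings the maintenance methyltransferase to replicated DNA, had 6.24 FPKM in the newborn library and 0.0851, 0.112 and 0.114 FPKM at 15 weeks, a difference of -2.71 ± 0.02 log2 units. *Dnmt1*, the maintenance methyltransferase, had 7.07 FPKM and 2.12, 1.99 and 2.03 FPKM. *Dnmt3b*, a de novo methyltransferase, had 4.46 FPKM and 0.489, 0.341 and 0.223 FPKM. The other de novo enzyme, *Dnmt3a*, with 4.25 FPKM and 2.44, 2.01 and 3.04 FPKM, was not called. *Tet2* (2.92 FPKM against 1.58, 1.66 and 1.66 FPKM) and *Tet3* (2.77 FPKM against 3.27, 2.59 and 3.55 FPKM), which oxidise methylcytosine, were not called in either direction. In the list of 12 genes of DNA methylation and demethylation, 9 were measured, 4 were lower and none was higher. Besides *Uhrf1*, *Dnmt1* and *Dnmt3b*, the lower gene was *Gadd45a*, with 57.9 FPKM and 16.2, 9.74 and 26.7 FPKM. Of the 7 expressed at both ages 2 were lower, *Dnmt1* and *Gadd45a*. *Uhrf1* and *Dnmt3b* passed the filter through the newborn level alone, so their direction was fixed by it.

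In contrast, the genes with the largest rise among those above 0 in all 4 libraries included genes of secreted and detoxifying proteins of adult liver. The major urinary proteins, which are made in liver, pass into urine and bind pheromones, had 6 of 8 measured genes higher and none lower, from 23 on the list. All 8 entered through their adult level alone, so their median of 6.34 log2 units is a description of the genes that passed. *Mup3* had 0.669 FPKM in the newborn library and 3760.4, 3589.7 and 3386 FPKM at 15 weeks, a difference of 11.07 ± 0.08 log2 units. *Mup20*, also known as darcin, had 0.562 FPKM and 3065, 3957 and 3249.6 FPKM. *Mup21* had 0.173 FPKM and 712, 638 and 559 FPKM. At 3 weeks these genes were still close to the newborn level, at 6.9, 3.0 and 4.92, 0.831, 1.64 and 1.12 and 1.06, 0.73 and 0.788 FPKM. Genes of this family are nearly identical, and reads can be divided among them in a way that differs between libraries. *Mup16* was listed at 0, 0 and 4120.1 FPKM in libraries A, B and C, so the family is uncertain gene by gene.

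Cytochromes P450, the oxidases that detoxify drugs, steroids and other compounds, had more members higher than lower. Of 79 genes on the list 61 were measured, 32 were higher and 7 lower, with a median of 1.26 log2 units. Of the 51 expressed at both ages, 25 were higher and 4 lower. *Cyp2c29* had 0.519 FPKM in the newborn library and 957, 895 and 913 FPKM at 15 weeks, a difference of 9.25 ± 0.05 log2 units, and 477, 304 and 481 FPKM at 3 weeks. *Cyp2e1*, which oxidises ethanol, had the highest level of the family, with 958 FPKM and 3275, 4265 and 4246 FPKM. *Cyp1a2*, which oxidises caffeine, had 75.8 FPKM and 462, 489.9 and 482 FPKM. *Cyp2f2* had 66.2 FPKM and 630.1, 607 and 629.8 FPKM.

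*Cyp4a12a* and its close copy *Cyp4a12b*, which hydroxylate fatty acids in adult male liver, had almost no RNA at 3 weeks. *Cyp4a12a* had 0.158 FPKM in the newborn library, 0, 0.037 and 0.0149 FPKM at 3 weeks and 189.7, 255 and 184 FPKM at 15 weeks. *Cyp3a11*, the main oxidase of foreign compounds in the mouse, had 344 FPKM in the newborn library, 998, 485 and 1308 FPKM at 3 weeks and 1415, 1452 and 1417 FPKM at 15 weeks. The related *Cyp3a16* moved the other way, from 156 FPKM to 58, 59.4 and 59.6 FPKM, and *Cyp3a44* from 134 FPKM to 54.4, 55.5 and 53.1 FPKM. *Cyp3a16*, *Cyp3a44* and *Cyp3a11* are similar in sequence, so part of their values may be shared reads.

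Lower members of the P450 family included genes known as female-biased. *Cyp2b9* had 158 FPKM in the newborn library, 301, 148 and 227 FPKM at 3 weeks and 0.574, 0.184 and 0.853 FPKM at 15 weeks. *Cyp2b13* had 18.7 FPKM, 113, 43.6 and 66.5 FPKM and 0.515, 0.461 and 0.249 FPKM. *Cyp2b13* was thus higher in all 3 libraries of 3 weeks than in the newborn library, while for *Cyp2b9* the newborn value lay within the range of 3 weeks, and both genes were lowest at 15 weeks. *Xist* was near 0 in the newborn library as well as at 15 weeks.

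The *Cyp3a11* promoter (GRCm38.p6, chr5:145879805-145880104, minus strand) is printed for a motif shared within the family. Capitals mark CAAAGTCCA, a form of the site known for the liver factor HNF4A. It was searched on both strands and found in 9 (19.1%) of 47 matched P450 promoters and in 0.477% of all promoters.
Cyp3a11: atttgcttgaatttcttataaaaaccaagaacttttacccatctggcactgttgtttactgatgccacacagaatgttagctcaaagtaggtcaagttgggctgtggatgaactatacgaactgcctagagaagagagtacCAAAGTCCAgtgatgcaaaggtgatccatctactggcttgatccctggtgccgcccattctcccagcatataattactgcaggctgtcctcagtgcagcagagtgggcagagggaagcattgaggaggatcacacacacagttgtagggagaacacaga
The motif did not follow the direction of change, since the 9 genes were 3 higher (*Cyp2c67*, *Cyp2c70* and *Cyp3a11*), 1 lower (*Cyp3a16*) and 5 called neither way. The genes belong to 2 groups of close copies and are not independent.

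Enzymes of conjugation, which attach sugars, sulfate or glutathione to the products of oxidation, were divided by family. Of 48 measured genes 24 were higher and 7 lower, with a median of 1.20 log2 units, and of the 36 expressed at both ages 21 were higher and 1 lower. The higher genes were glucuronosyltransferases and glutathione transferases. *Ugt2a3* had 8.58 FPKM in the newborn library and 122, 131 and 123 FPKM at 15 weeks. *Ugt3a1* had 7.0 FPKM and 61, 56.6 and 51.4 FPKM. *Gstp1*, one of the most abundant glutathione transferases of male mouse liver, had 102 FPKM, 51.3, 45.5 and 58 FPKM at 3 weeks and 474, 700.2 and 565 FPKM at 15 weeks.

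The 7 lower genes were all sulfotransferases. *Sult2a1*, which sulfates steroids and bile acids, had 29.7 FPKM in the newborn library, 739, 533 and 737 FPKM at 3 weeks and 0.0294, 0 and 0 FPKM at 15 weeks. *Sult2a2* had 21.5 FPKM, 377, 273 and 372 FPKM and 0, 0 and 0 FPKM. The *Sult2a* genes are close copies, and their high level was in the 3 week libraries.

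Bile acid genes were higher or not called, with 11 of 24 higher, none lower and a median of 0.83 log2 units. Among the 22 expressed at both ages, 9 were higher. *Cyp7a1*, the rate-limiting enzyme of bile acid synthesis, had 7.05 FPKM in the newborn library, 82.1, 44.9 and 36.4 FPKM at 3 weeks and 22.5, 25 and 20.9 FPKM at 15 weeks. *Cyp27a1*, which starts the alternative route, had 20.0 FPKM and 247, 327 and 302 FPKM. *Cyp7b1*, the next enzyme of that route, had 0.249 FPKM, 0.778, 0.647 and 0.836 FPKM at 3 weeks and 75.9, 102 and 84.4 FPKM at 15 weeks. *Cyp7a1* was therefore highest at 3 weeks, whereas *Cyp7b1* was low there. *Baat*, which joins bile acids to taurine, had 15.8 FPKM and 89.9, 87.5 and 76.4 FPKM. Of the transporters, *Slco1a1* had 0.248 FPKM, 0.962, 0.957 and 1.08 FPKM at 3 weeks and 119, 128 and 155 FPKM at 15 weeks, and the bile salt importer *Slc10a1* had 123 FPKM and 284, 303 and 268 FPKM. *Cyp8b1* (128 against 199, 212 and 162 FPKM) and the bile acid receptor *Nr1h4* (44.7 against 37, 41.6 and 47.3 FPKM) were not called.

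Genes of nitrogen disposal and amino acid breakdown were higher in part. Of 32 genes 13 were higher, none was lower and 19 were not called, with a median of 0.97 log2 units, and 31 of the 32 were expressed at both ages, of which 12 were higher. The urea cycle genes *Asl*, *Otc* and *Nags* were among those not called. *Cps1*, which carries ammonia into the urea cycle, had 296 FPKM in the newborn library, 1632, 1015 and 1757 FPKM at 3 weeks and 1302, 1155 and 939 FPKM at 15 weeks. *Arg1*, which releases urea, had 125 FPKM, 612, 491 and 625 FPKM and 514, 424.4 and 384 FPKM. *Prodh*, which breaks down proline, had 0.589 FPKM, 113, 63.2 and 92.7 FPKM and 85.1, 81 and 69.3 FPKM. *Cps1*, *Arg1* and *Prodh* were in or above the adult range in at least 2 of the 3 libraries of 3 weeks. *Oat*, which turns ornithine towards glutamate, was below it, with 17.7 FPKM, 43.9, 29.8 and 56.9 FPKM and 396, 444 and 298 FPKM. *Tdo2*, the first enzyme of tryptophan breakdown, had 56.4 FPKM, 342, 228 and 377 FPKM and 641, 549 and 552 FPKM, and *Tat*, which starts the breakdown of tyrosine, had 187 FPKM, 1115, 600.0 and 1237 FPKM and 1284, 935 and 874 FPKM.

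Genes of fatty acid synthesis were higher in part. Of 19 genes of fatty acid synthesis 10 were higher and 1 was lower, with a median of 1.37 log2 units, and of the 16 expressed at both ages 8 were higher and none lower. *Fasn*, fatty acid synthase, had 15 FPKM in the newborn library, 10.6, 10.4 and 7.94 FPKM at 3 weeks and 109, 81.3 and 85.6 FPKM at 15 weeks. *Thrsp*, a lipogenic gene that responds to thyroid hormone, had 1.07 FPKM, 26.1, 24.7 and 26.3 FPKM and 276, 297 and 311 FPKM. *Scd1*, which desaturates stearate, had 3.38 FPKM, 4.63, 3.21 and 8.03 FPKM and 401, 1062 and 316 FPKM. Library B stood apart from A and C for *Scd1*, so its difference of 6.87 ± 0.92 log2 units carries the widest SD of the genes with the largest rise. *Srebf1*, the transcription factor of the pathway, had 108 FPKM and 197, 92.7 and 125 FPKM, which overlapped, and was not called.

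Cholesterol synthesis had 7 of 21 genes higher and none lower, with a median of 1.00, and all 21 were expressed at both ages. *Fdps*, which makes farnesyl diphosphate, had 46.1 FPKM in the newborn library, 12.6, 13.8 and 5.2 FPKM at 3 weeks and 151, 148 and 155 FPKM at 15 weeks. *Sqle*, the enzyme that oxidises squalene, had 18.1 FPKM, 0.802, 1.42 and 0.262 FPKM and 47.8, 32.1 and 37.3 FPKM and was not called. Both were lowest at 3 weeks, below the newborn level.

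Genes of fatty acid oxidation were mostly not called. Of 25 genes 2 (8%) were higher and 4 (16%) lower, beside 5.92% and 8.89% of all genes, with a median of -0.23 log2 units, and no direction is given for the list. *Cpt1a*, which takes fatty acids into mitochondria, had 115 FPKM in the newborn library and 109, 106 and 124 FPKM at 15 weeks and was not called. *Bdh1*, which makes the ketone body hydroxybutyrate, fell from 173 FPKM to 48.8, 44.6 and 50.5 FPKM, and *Hadh*, which oxidises short acyl chains, from 255 FPKM to 107, 102 and 94.2 FPKM. In the breakdown and synthesis of glucose, 3 of 25 genes were higher and 3 lower (12% each, beside 5.92% and 8.89% of all genes). *Pdk4*, which keeps pyruvate from entering the citric acid cycle, fell from 102 FPKM to 3.44, 2.75 and 7.96 FPKM. *Pck1*, the rate-limiting enzyme of gluconeogenesis, had 1198 FPKM and 1276, 1178 and 1426 FPKM and was not called.

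Plasma proteins were not a uniform group. The highest genes of the newborn library included *Ahsg*, *Apoe* and *Apoa1*. *Ahsg*, the gene of fetuin, which binds calcium and is abundant in fetal plasma, had 19814 FPKM in the newborn library, 16667, 12763 and 18679 FPKM at 3 weeks and 4064, 4039 and 5000.1 FPKM at 15 weeks. *Apoe*, a ligand for lipoprotein receptors, had 12489 FPKM and 10035, 11682 and 10811 FPKM and was not called. Among 15 apolipoproteins 2 were higher and 2 lower (13.3% each, beside 5.92% and 8.89% of all genes). *Apoc3*, which slows the removal of triglycerides, had 90.9 FPKM, 972, 708 and 1088 FPKM at 3 weeks and 1101, 1292 and 995 FPKM at 15 weeks. Of 20 coagulation proteins 2 were higher (*F9* and *Pros1*) and 1 was lower (*Kng1*), but after rescaling the libraries to the same upper quartile 0 were higher and 2 lower, so no direction is given for this list.

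Complement had 5 of 18 genes higher and none lower (4 of 17 expressed at both ages), and 4 of the 5 encode late components that form the pore in the target membrane. *C6* had 0.108 FPKM in the newborn library, 0.284, 0.289 and 0.558 FPKM at 3 weeks and 117, 169.8 and 158 FPKM at 15 weeks. *C9* had 20.0 FPKM, 59.1, 42.5 and 53.9 FPKM and 283, 295 and 226 FPKM. *C3*, the central component, had 4127 FPKM and 2291, 2219 and 2317 FPKM and was not called.

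Acute-phase genes went both ways, with 7 of 18 higher and 4 lower, and 5 and 4 of the 16 expressed at both ages. *Orm1* and *Orm2*, which encode the acid glycoproteins of plasma, were among the higher genes. *Orm1* had 2.65 FPKM in the newborn library, 27.5, 133 and 55.8 FPKM at 3 weeks and 667, 655 and 523 FPKM at 15 weeks. *Orm2* had 0.45 FPKM, 4.85, 86.7 and 8.95 FPKM and 65, 71.9 and 47.2 FPKM. Library B of 3 weeks was the highest of that age for both, and for *Saa1* too, with 11.8, 382 and 12.9 FPKM against 5.0 FPKM in the newborn library and 112, 127 and 48.1 FPKM at 15 weeks. *Serpina3k*, the gene of a plasma protease inhibitor, had 40.1 FPKM, 526, 672 and 621 FPKM and 5189, 6153 and 5321 FPKM. The pentraxin gene *Apcs* fell from 261 FPKM to 54.4, 42.9 and 46.8 FPKM, and *Itih3*, which binds hyaluronan, from 1271 FPKM to 496, 391 and 387 FPKM.

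**Figure D4:**
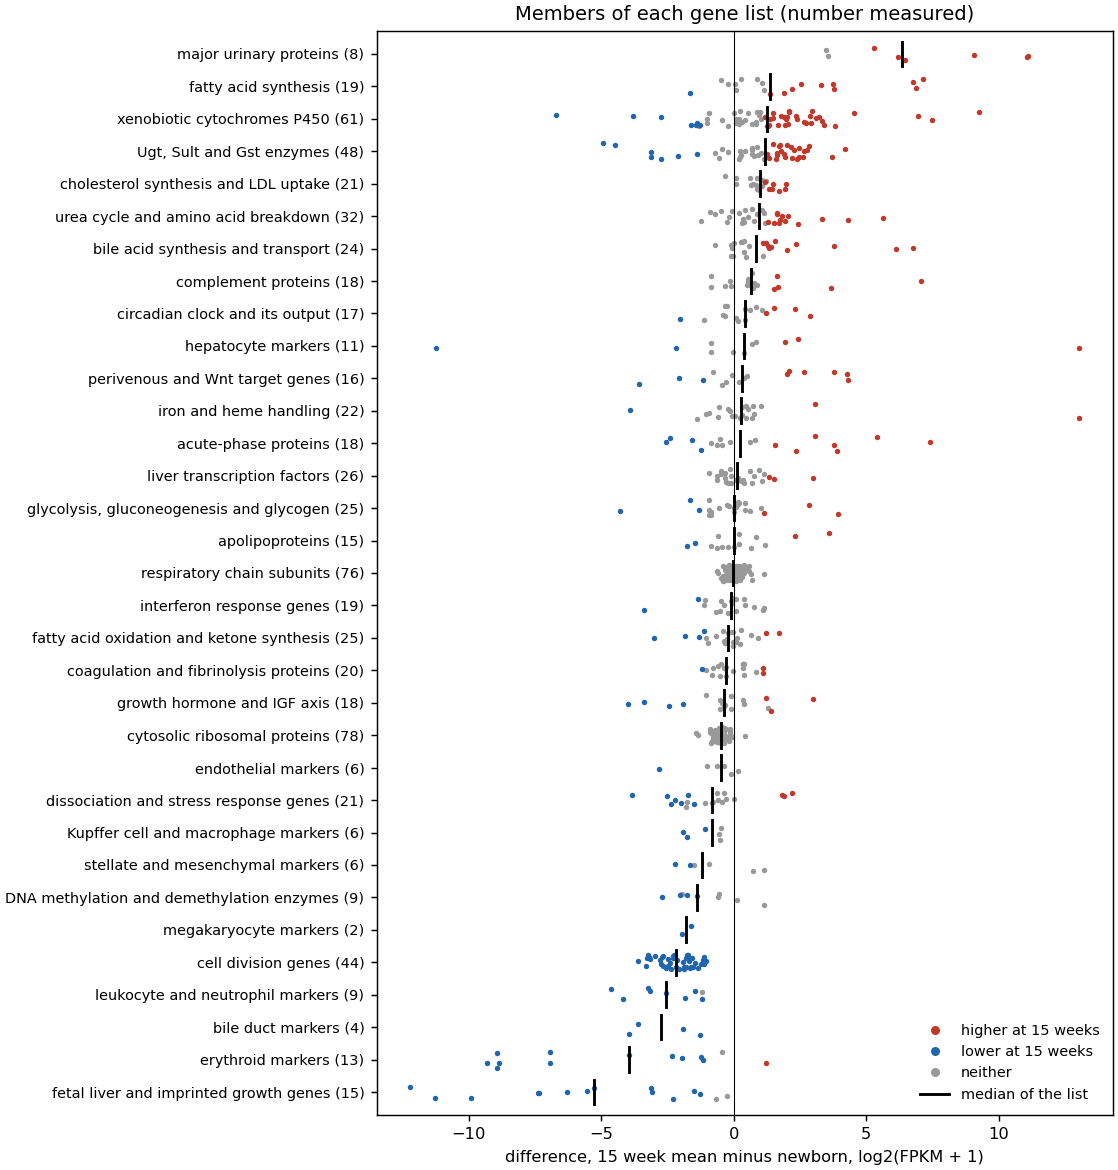
Difference between the mean of the 15 week libraries and the newborn library (x axis, log2(FPKM + 1)) for each measured member of the textbook gene lists, with the median of the list as a bar (red, called higher; blue, called lower; grey, neither). Among these lists the medians run from -5.28 for fetal and imprinted genes to 6.34 for major urinary proteins, both of which hold mostly genes that passed the filter at 1 age alone, and the ribosomal and respiratory chain genes form narrow groups near 0 with no call.

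The growth hormone and IGF axis differed by member. *Igf1* had 36.8 FPKM in the newborn library, 103, 63.9 and 93.8 FPKM at 3 weeks and 85.8, 94.2 and 80.3 FPKM at 15 weeks. *Ghr*, the growth hormone receptor, had 59.4 FPKM and 155, 176 and 148 FPKM. *Igfbp2*, which binds IGFs in fetal plasma, had 2399.6 FPKM, 621, 505 and 801 FPKM and 185, 179 and 374 FPKM, and *Igfbp1*, another binding protein, had 1054 FPKM, 1013, 493 and 1151 FPKM and 296, 294 and 258 FPKM. The receptor and *Igf1* were thus higher and the binding proteins lower. *Cux2*, a repressor known from female liver, had 15.1 FPKM, 16.5, 8.4 and 16.2 FPKM and 0.00752, 0.0114 and 0 FPKM. Over the list of 18 measured genes 3 were higher and 4 lower, and 2 and 3 of the 16 expressed at both ages, with a median of -0.36 log2 units.

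Most transcription factors of liver identity kept their level within the limit. Of 26 measured factors 3 were higher (11.5%, beside 5.92% of all genes) and none lower (2 of 25 expressed at both ages), with a median of 0.12 log2 units. *Hnf4a* had 78.6 FPKM in the newborn library and 126, 138 and 122 FPKM at 15 weeks, and *Cebpa* had 97.5 FPKM and 125, 122 and 128 FPKM. Neither was called. The 3 higher factors were *Cebpb*, *Rxra* and *Zbtb20*. *Cebpb*, which acts in the acute phase and in metabolism, had 19.1 FPKM, 87.1, 87.9 and 134 FPKM at 3 weeks and 151, 155 and 170.1 FPKM at 15 weeks. *Rxra*, the partner of many nuclear receptors, had 30.2 FPKM and 77.4, 78.1 and 79.1 FPKM. *Zbtb20*, known as a repressor of *Afp*, had 0.746 FPKM, 1.149, 1.86 and 1.22 FPKM and 3.5, 3.36 and 5.6 FPKM. *Zhx2*, another repressor of *Afp*, had 1.24 FPKM and 3.07, 3.27 and 3.7 FPKM, with a difference of 0.95 ± 0.11 log2 units, and was not called.

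Clock genes depend on the hour of collection, which is not given in the sources used here. *Dbp*, an output gene of the clock, had 3.46 FPKM in the newborn library and 24.5, 23.6 and 53.3 FPKM at 15 weeks, and *Nr1d1*, a repressor within the clock, had 7.61 FPKM and 30.4, 46 and 54.1 FPKM. *Arntl*, the positive factor, moved in the opposite direction, from 6.87 FPKM to 1.41, 1.18 and 0.397 FPKM. Hour and age cannot be told apart for these genes. The spread among the adult libraries was wide, as for *Dbp*, whose library C was far above A and B.

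Genes of zonation along the liver lobule were divided. Perivenous genes lie near the central vein and many of them depend on Wnt signals. Of 16 measured, 6 were higher and 3 lower, and of the 15 expressed at both ages 5 and 3. The higher ones included *Cyp2e1*, *Cyp1a2* and *Oat*, given above, and *Slc1a2*, a glutamate transporter, with 0.437 FPKM in the newborn library and 22, 32.3 and 26.1 FPKM at 15 weeks. *Glul*, glutamine synthetase and the classical perivenous marker, had 136 FPKM and 102, 181 and 119 FPKM, which overlapped. *Rhbg*, an ammonium transporter, was lower, with 19.7 FPKM and 3.06, 5.94 and 3.1 FPKM. The Wnt target *Axin2*, with 3.71 FPKM and 1.75, 1.46 and 2.1 FPKM, was not called.

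Of 22 iron and heme genes 2 (9.09%) were higher and 1 (4.55%) was lower, beside 5.92% and 8.89% of all genes. One of the higher genes was *Trf*, which was listed at 0 in the newborn library and is given no fold change. *Alas1*, the rate-limiting enzyme of heme synthesis in liver, had 25.3 FPKM in the newborn library, 117, 158 and 222 FPKM at 3 weeks and 153, 303 and 233 FPKM at 15 weeks. Of the 20 expressed at both ages, *Alas1* alone was called. *Id1*, a target of BMP signals, fell from 17.1 FPKM to 0.162, 0.361 and 0.0822 FPKM. *Hamp*, the gene of the iron hormone hepcidin, had 6.63 FPKM in the newborn library and 4.11, 72.9 and 0 FPKM at 15 weeks, so the adult libraries ranged on both sides of the newborn value.

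Genes of dissociation and stress had 3 of 21 higher and 7 lower, and of the 18 expressed at both ages 1 and 6. These genes respond to the isolation of cells as well as to the state of the tissue. *Fosb*, an immediate early gene, had 125 FPKM in the newborn library, 35.1, 31 and 33 FPKM at 3 weeks and 7.4, 3.53 and 16.6 FPKM at 15 weeks, and *Fos* had 419.7 FPKM, 214, 178 and 205 FPKM and 141, 69.7 and 199.5 FPKM. The heat shock genes *Hspa1a* (0.36 against 2.11, 7.22 and 3.99 FPKM) and *Hspa1b* (0.665 against 3.71, 11.4 and 6.86 FPKM) were higher at 15 weeks. The metal-binding gene *Mt1* fell from 598 FPKM to 146, 92.6 and 244 FPKM. The part of handling in these differences was not tested.

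Housekeeping groups gave no calls. None of 76 respiratory chain subunits and none of 78 cytosolic ribosomal proteins was called, with medians of -0.03 and -0.48 log2 units. The ribosomal median lay below that of all genes, and 1 or 2 of the ribosomal genes became lower under alternatives of scaling or of the rule. Interferon genes had 2 of 19 lower (10.5%, beside 8.89% of all genes) and none higher, and 1 of the 15 expressed at both ages was lower. No direction is given for this list. Of these genes the chemokine *Cxcl10* had 32.4 FPKM in the newborn library and 1.88, 3.66 and 1.49 FPKM at 15 weeks.

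Single genes that mark other cells are given here. The alpha globin gene *Hba-a1*, which has 2 rows in the table, had 676 FPKM in the newborn library and 0.0446, 0.0749 and 0.0939 FPKM at 15 weeks in its higher row. *S100a9*, a neutrophil gene, had 24.9 FPKM and 0.0605, 0.0614 and 0 FPKM. *Spp1*, the gene of osteopontin and a marker of bile duct cells, had 114 FPKM, 4.5, 6.03 and 8.1 FPKM at 3 weeks and 6.44, 7.27 and 5.39 FPKM at 15 weeks. *Alas2*, the erythroid enzyme of heme synthesis, went the other way from the globins, with 17.5 FPKM and 40.0, 45.6 and 40.2 FPKM. Of the 71 measured rows of the lists of other cells, the pancreas included, 1 was called higher and 55 lower, and without them 640 higher and 907 lower genes are left, an alternative added after seeing the data. Most of these rows passed the filter through the newborn level alone, such as 11 of 13 erythroid, 8 of 9 leukocyte and 24 of 25 pancreas rows. The direction of those rows was fixed by the filter. How many of the other calls came from RNA of other cells was not tested.

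The levels at 3 weeks were set beside those of both ages, as a description only. Of the 641 higher genes, 145 (22.6%) were within 1 log2 unit of the 15 week mean and not of the newborn library, and 267 (41.7%) were within 1 unit of the newborn library and not of 15 weeks. A further 146 were within 1 unit of both. Of the 962 lower genes, 563 (58.5%) were within 1 unit of 15 weeks and not of the newborn library, 106 (11%) within 1 unit of the newborn library and not of 15 weeks, and 199 within 1 unit of both. The difference of the 3 week mean from the newborn library was 38.6% of that at 15 weeks for the median higher gene and 76.9% for the median lower gene. On log2(FPKM + 1), a gene under 1 FPKM at both 3 and 15 weeks is always within 1 unit of 15 weeks. At 15 weeks 626 lower genes and none of the higher genes had a mean under 1 FPKM. The part of this floor in the shares was not tested. Age and the other sex pattern of the 3 week libraries cannot be told apart in these shares. Genes of adult male liver such as *Mup20*, *Cyp4a12a* and *Elovl3* were near their newborn level at 3 weeks, with 0 FPKM of *Elovl3* in the newborn library, 0.0353, 0.249 and 0.251 FPKM at 3 weeks and 139, 154 and 57.2 FPKM at 15 weeks.

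Methylation and chromatin were measured in other samples and were not used to choose the genes. Whole-genome bisulfite sequencing (WGBS) gave the methylated share in 200 bp tiles for 1 newborn and 1 adult WT library, and peaks of the acetylated histone H3K27ac, of H3K4me1 and of open chromatin by ATAC-Seq were called in adult WT hepatocytes (mm9). The promoter was taken as 1 kb before to 100 bases after the start. These samples have no replicates, apart from 2 ATAC-Seq libraries, and the intervals given cover counting of genes only.

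The number of promoters with less methylation in the adult differed between the groups. Promoter methylation was at least 20 points lower in the adult than in the newborn library at 110 of 587 higher genes (18.7%), at 26 of 841 lower genes (3.09%) and at 147 of 8318 genes called neither way (1.77%). It was at least 20 points higher at 3, 5 and 4 genes of these groups. In gene bodies the median difference was -7.90 points for higher genes, -1.71 points for lower genes and -3.50 points for the rest. The promoter median of lower genes was 31.6% in the newborn and 30.4% in the adult library, and that of higher genes 37.6% and 26.8%. For the rest it was 21.5% and 19.1%. In the newborn library 33.7% of higher, 25.2% of lower and 13.9% of the other promoters had at least 50% methylation. A promoter can fall by 20 points only from a level of 20% or more, and the part of this starting level was not tested.

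Named genes varied widely within the groups. The median promoter difference of all higher genes was -3.13 points. *Scd1*, *Alas1* and *Cyp27a1*, all higher in RNA, differed little, with 5.07% and 6.32%, 52.0% and 52.3%, and 20.4% and 20.6% in the newborn and adult promoter. By contrast, *Serpina3k*, *Ugt3a1* and *Orm2* had the largest promoter falls among the named genes. The promoter of *Serpina3k* had 71.7% methylation in the newborn and 2.34% in the adult library, and its body 81.9% and 20.1%. The promoter of *Orm2* had 74.8% and 15.7%, and that of *Ugt3a1* 69.8% and 4.74%. The bodies of these 2 genes kept more, with 84.7% and 63.6% for *Orm2* and 81.6% and 75.4% for *Ugt3a1*. In the body of *Mup3* the values were 88.9% and 24.6%. The promoter of *Cyp2c29* still had 60.0% in the adult, from 94.2% in the newborn. *Afp* had more methylation in the adult, with 67.3% and 74.7% at the promoter and 41.1% and 67.4% in the body. *Cyp2b13* was lower in RNA although its promoter had 67.2% in the newborn and 23.8% in the adult library. At *Mki67* the promoter had 18.1% and 16%, so the lower RNA came with little difference in methylation there.

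The *Orm2* promoter is printed as an example of a region with less methylation and more RNA in the adult (GRCm38.p6, chr4:63362199-63362498, plus strand, 250 bases before to 50 after the start). Capitals mark its 4 CpG sites. The methylation above was read over mm9 tiles of 1 kb before to 100 bases after the start and not at single CpG sites.
Orm2: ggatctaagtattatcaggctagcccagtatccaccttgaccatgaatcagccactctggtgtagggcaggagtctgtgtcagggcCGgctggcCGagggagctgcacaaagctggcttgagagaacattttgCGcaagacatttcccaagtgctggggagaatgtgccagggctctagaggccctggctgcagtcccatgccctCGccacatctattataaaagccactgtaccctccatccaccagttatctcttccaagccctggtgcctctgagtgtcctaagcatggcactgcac

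Adult H3K27ac peaks, a mark of active promoters and enhancers, lay in the promoters of 82.6% of higher genes (95% Wilson interval 79.4% to 85.5%), of 45.7% of lower genes (42.4% to 49.0%) and of 85.2% of the rest (84.5% to 86.0%). H3K4me1 differed less, with 71.0%, 64.1% and 67.2%. Open chromatin in the ATAC-Seq libraries covered 71.8% and 69.4% of higher genes, 65.5% and 64.3% of lower genes and 86.3% and 85.6% of the rest. Most of the lower genes thus had an open promoter in adult hepatocytes. *Afp*, *H19* and *Meg3* had no peak of any of these kinds in the adult, whereas *Mki67* had H3K4me1 and ATAC-Seq peaks without H3K27ac. Lower genes were mostly expressed at under 1 FPKM at 15 weeks, and the part of the level itself in these shares was not tested.

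**Figure D5:**
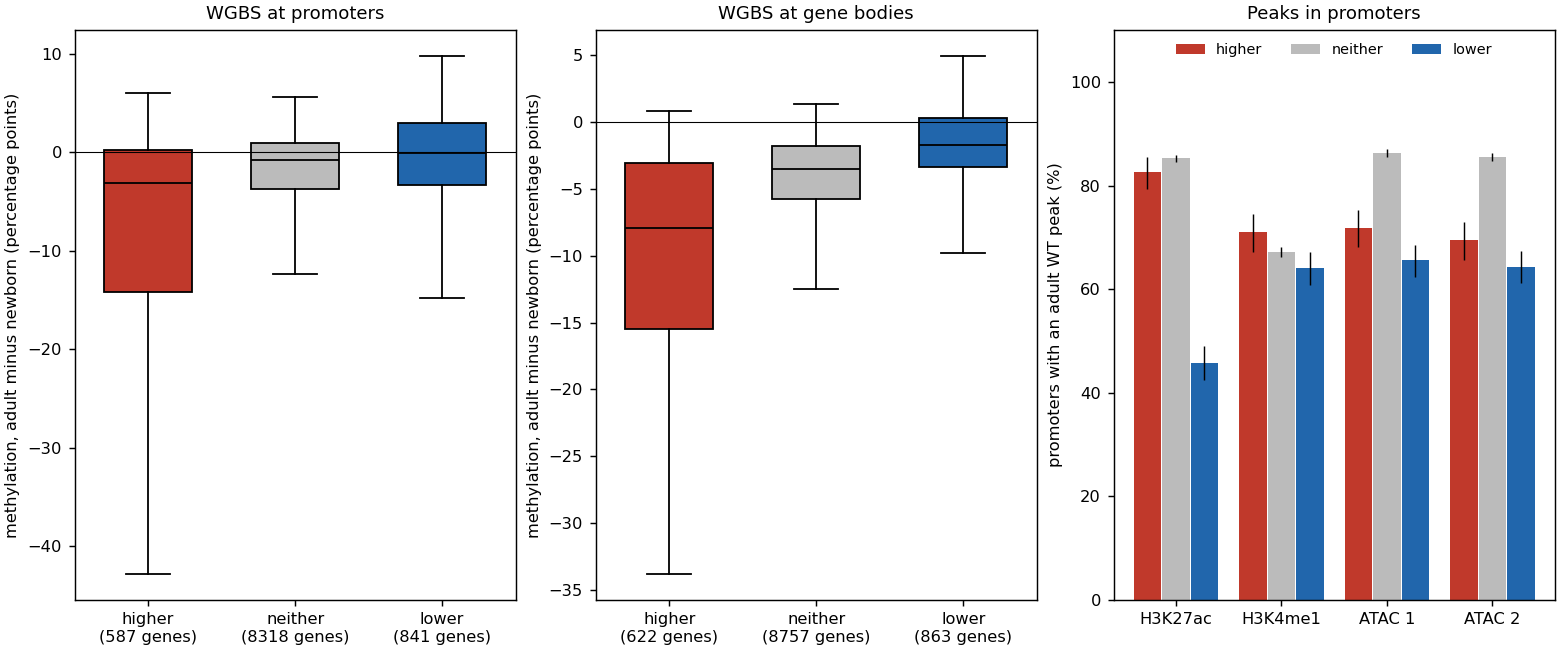
Left and middle, difference in WGBS methylation between the adult and the newborn library in percentage points at promoters and gene bodies of genes called higher, neither and lower (box, quartiles with the median; whiskers, 5th to 95th percentile of genes). Right, percent of promoters with an adult WT peak with 95% Wilson intervals, where the H3K27ac share of lower genes, 45.7%, stands below 82.6% and 85.2% of the other groups.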

How the data were processed

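RNA was measured in WT hepatocytes of 1 newborn, 3 mice of 3 weeks and 3 mice of 15 weeks. Per the study's methods, the authors trimmed single-end reads of 50 bases with cutadapt (version 1.15), aligned them with TopHat2, removed reads at the same position with SAMtools and deposited FPKM values from Cufflinks, and in abundant genes such removal can lower FPKM. Read counts are not given, so depth is unknown. The spacing of the smallest values put the 15 week libraries at 1.04 to 1.31 times the depth of the newborn library. Of 24 columns of FPKM 14 were not used in any step. Columns of fold changes and p-values were not read. The authors deposited the WGBS fraction of methylated CpGs in tiles of 200 bases (BSMAP version 2.74, mm9, at least 15 CpG readings), without the coverage of each tile, and it was multiplied to percent. They called peaks with HOMER, and per the file headers each peak has a normalized tag signal and a score. Only peak positions were used here, and any overlap with the promoter counted.

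Differences were calculated on log2(FPKM + 1), which understates the change of low genes, for genes with at least 1 FPKM on either side, with Python 3.11.15, NumPy 2.4.6 and pandas 2.3.3. The call rule was tested on simulated data. No test was made, since 1 newborn library gives no spread. The members and the gene lists were chosen with earlier results of these data known. The lists, 34 in number, are from textbook knowledge, and 10 more, given in the closing section, were chosen after the values were seen. Named genes are the 15 with the largest difference in each direction among genes above 0 in all 4 libraries, up to 4 called members per list and direction with the members a list turns on, the 10 highest genes of each age, and the 5 highest genes at 0 on the other side. Of the symbols measured, 7999 of 10760 were found among the RefSeq promoters. Among all rows, 767 share a symbol with another row, 105 of them measured. Values of near-identical copies (*Mup*, *Serpina1*, *Cyp2c*, *Cyp4a12*, *Sult2a*, *Ugt1a* and the alpha globins) are uncertain. Promoter methylation was the mean of the tiles from 1000 bases before to 100 after the start, and a gene body needed 5 tiles or more.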

Additional observations from a re-analysis of the deposited data

How the results depend on the processing

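Under 15 alternatives (another pseudocount, filter, limit, rule or scaling, each 15 week library left out, the injected controls as the adult side, genes listed at 0 left out, rows of 1 symbol added up, and the markers of other cells left out), 0 of 164 named genes changed direction. Many named genes were chosen for large differences in these same libraries. Every alternative used the same newborn library, so this count does not cover the spread between newborn mice. Of 157 named genes called, 99 were still called at a limit of 2 log2 units, 138 with the controls, 144 at 5 FPKM and 132 without genes listed at 0. The genes higher and lower numbered 194 and 295 at 2 log2 units. At 5 FPKM 515 were lower. The controls gave 621 and 987, with 511 and 841 shared with the calls above. Rescaling to the same upper quartile put the median difference at -0.14, and gave 563 higher and 1118 lower genes, all 563 shared.

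Leaving out each 15 week library gave 685 to 743 higher and 998 to 1066 lower genes, a median difference of -0.05 to 0.02, and 14 to 16 lists with more members higher and 13 to 16 with more lower, against 15 and 14. A call needs every adult library used, so leaving a library out could only keep or add calls. The same gave body differences of -7.57 to -7.53 points for higher and -1.75 to -1.72 points for lower genes, H3K27ac shares of 82.2% to 82.6% and 46.6% to 47.9%, and shares near 15 weeks at 3 weeks of 20.6% to 22.3% and 56.0% to 57.9%. Without the markers of other cells and the pancreas list, chosen after seeing the data, 7 lists had more members lower.

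The share of lower genes near 15 weeks at 3 weeks was 46.7% and 51.4% with pseudocounts of 0.1 and 0.5, 54.6% at 5 FPKM, 55.1% with the rule on the mean, 54.9% after upper quartile scaling, 55.0% with the controls and 54.4% without genes listed at 0. With a pseudocount of 0.1 the share of higher genes was 18.9% and their body difference -5.83 points. The H3K27ac share was 87.0% for higher and 58.3% for lower genes at 5 FPKM. For lower genes it was 32.6% at 2 log2 units, 49.8% with the rule on the mean and 52.8% without genes listed at 0. Beyond the genes each alternative keeps, the cause was not tested. No paired analysis was possible because the newborn side has 1 library and the columns carry no shared replicate number. Low FPKM limit the lower genes most, since 626 had under 1 FPKM at 15 weeks.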

Other observations

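Further gene families, chosen after their values were seen and therefore given with no weight as evidence, included those that differ between the sexes in adult liver. Of 14 measured genes known as male-biased all 14 were higher at 15 weeks, and 11 of them entered through their adult level alone. Their summed level was 240.2 FPKM in the newborn library, 138 to 194 FPKM at 3 weeks and 9609 to 11044 FPKM at 15 weeks. *Hsd3b5*, a steroid dehydrogenase, had 0.66 FPKM in the newborn library, 0.136, 0.184 and 0.182 FPKM at 3 weeks and 94.3, 127 and 113 FPKM at 15 weeks. *Nox4*, an oxidase that makes hydrogen peroxide, was listed at 0 in the newborn library and had 10.6, 10.5 and 10.8 FPKM at 15 weeks. Of 19 genes known as female-biased 11 were lower and 2 higher, but 8 entered through the newborn level alone, and of the 10 expressed at both ages 3 were lower and 1 higher. *Hao2*, which oxidises hydroxy acids, had 63.9 FPKM, 55.3, 27.1 and 54.5 FPKM at 3 weeks and 0.086, 0.0291 and 0.0182 FPKM at 15 weeks, and *Fmo2*, a monooxygenase, had 4.48 FPKM, 20.6, 17.7 and 28.8 FPKM and 0.478, 0.626 and 0.619 FPKM. The newborn library had the male transcript pattern, with 10.0 FPKM of the Y-linked *Ddx3y*, and its levels of these female-biased genes lay above those of 15 weeks.

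Transporters and esterases of detoxification were also higher in part. All 7 measured transporters of the *Slco* family were higher, 3 of which entered through their adult level alone. *Slco2b1* had 1.39 FPKM in the newborn library, 19.3, 11.2 and 21 FPKM at 3 weeks and 45.3, 43.8 and 43.4 FPKM at 15 weeks, whereas *Slco1a4* was highest at 3 weeks, with 3.36 FPKM, 78.4, 44.6 and 70.1 FPKM and 19.3, 11 and 20.5 FPKM. Of 16 carboxylesterases 7 were higher and none lower, all 7 among the 14 expressed at both ages. *Ces3a*, a lipase of liver, had 165 FPKM, 267, 122 and 210.4 FPKM and 1435, 1523 and 1463 FPKM, and *Ces1f* had 5.05 FPKM, 3.76, 1.11 and 3.09 FPKM and 282, 256 and 288 FPKM. Both were below all 15 week libraries at 3 weeks, an age that cannot be told apart from sex here. *Ces1c*, which is secreted into plasma, was high at both ages, with 1230.5 FPKM and 1459, 1477 and 1610.1 FPKM. Of 18 alcohol and aldehyde dehydrogenases 5 were higher and 1 lower, and of the 15 expressed at both ages 4 and 1. *Aldh1a1*, which makes retinoic acid, had 2.61 FPKM, 62.6, 34 and 56.1 FPKM and 427, 451 and 341 FPKM. *Aldh1b1*, a mitochondrial enzyme, was lower, with 109.7 FPKM, 72.3, 42.4 and 75.8 FPKM and 22.5, 21.5 and 18.7 FPKM.

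Genes of exocrine and endocrine pancreas had their highest sum in the newborn library. Of 25 measured genes 24 passed the filter through the newborn level alone, so that their direction was fixed by it. The sum of the list was 441 FPKM in the newborn library, 30.2 to 36.5 FPKM at 3 weeks and 7.96 to 11.6 FPKM at 15 weeks. *Ins2*, the gene of insulin, had 96.5 FPKM and was listed at 0 in all 6 older libraries, and so was *Ctrb1*, the gene of chymotrypsinogen, with 71.5 FPKM in the newborn library. *Cela1*, which is expressed more widely, had 3.77 FPKM and 8.07, 8.8 and 5.36 FPKM. *Slc39a5*, a zinc transporter of pancreas and liver, was among the 15 genes with the largest fall, with 71.3 FPKM and 0.385, 0.383 and 0.274 FPKM. Where this RNA came from was not tested.

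MHC class II genes, which present antigen on immune cells, were lower in 6 of 6, of which 5 passed the filter through the newborn level alone, and *Cd74* had 57.1 FPKM in the newborn library and 1.7, 6.48 and 1.55 FPKM at 15 weeks, with library B the highest of the adults. Of 9 guanylate-binding proteins, which respond to interferon, 7 were lower (6 of 8 expressed at both ages), as *Gbp11* with 72.2 FPKM and 3.38, 7.12 and 4.21 FPKM. Of 12 tubulins 7 were lower and none higher (5 of 10 expressed at both ages), and *Tubb2a* had 123 FPKM, 49.2, 24.9 and 54.5 FPKM at 3 weeks and 41, 39.2 and 26.2 FPKM at 15 weeks. Of 20 keratins, annexins and claudins 8 were lower and none higher, and of the 14 expressed at both ages 3 were lower. *Krt18*, a keratin of hepatocytes, had 312 FPKM, 55.9, 51.4 and 43.6 FPKM and 122, 84.9 and 109 FPKM, and *Anxa2*, which links membranes to actin, had 31.6 FPKM, 2.37, 3.35 and 5.22 FPKM and 1.34, 1.42 and 1.43 FPKM.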
